A study of Mus musculus with 12 samples.

Results

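The interferon-response genes described here are the 65 rows, of 11791 genes in the deposited liver table, whose name belongs to gene families named for the interferon response. The families are the Ifi, Ifih, Ifit and Ifitm genes, the Oas, Irf, Gbp and Irg genes, the Isg, Mx and Parp genes, the Stat genes, Trim21, Trim25 and Trim30, and Bst2, Eif2ak2, Rsad2, Rtp4, Usp18, Xaf1 and Zbp1. Their rule was a name pattern that uses no measured value. By role they are 10 transcription factors, 11 RNA sensors and RNA-acting enzymes, 10 restriction factors, 14 GTPases, 9 genes of ISG15, TRIM and PARP proteins, 3 DNA-binding genes of the Ifi200 family and 8 others.

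The samples were 12 RNA pools of mouse liver, each made from 2 animals, in 3 groups of 4 pools. All animals were C57BL/6 males, 10 weeks old, on an MCD diet during 3 weeks. Such food lacks methionine and choline and makes the liver fatty and inflamed. All carried Lyzs cre, a Cre recombinase driven by the lysozyme 2 locus in cells of the myeloid lineage. No further allele or agent is named for the control group. The KO group also lacked p38g/d, the stress kinases p38γ (Mapk12) and p38δ (Mapk13), in the Cre-expressing cells. The anti-Ly6G group had the control genotype and was given an ab, that is an antibody, against Ly6G, a neutrophil surface protein. Its sample titles name the antigen GR1. The growth protocol describes conplastic mice, in which mitochondrial DNA of one strain is bred into the nuclear background of another. The label for the origin of the mitochondria reads C57 for every control pool and for the first 2 KO pools, and NZB for KO 3, KO 4 and every pool given the antibody. Between control and anti-Ly6G pools the antibody and the mitochondria label therefore cannot be told apart. The protocols mention 12 males per genotype, more than 4 pools of 2 hold. Nothing else says that pools held separate animals, and p-values measure the spread between these pools.

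Levels are the authors' signal, which is reads scaled to a library size adjusted by TMM (RPM). Values after ± are SDs over the 4 pools of a group. The pools held 13.1 to 22.3 M recovered reads, and 3 reads corresponded to a signal of 0.125 to 0.242. The lowest value of any of the 65 genes in any pool was 0.323, above that floor, and the highest was 316. No filter on low values was applied, so all 65 genes were tested. This floor takes account of counting error alone. In the check of the targeted gene, Mapk12 had a signal of 2.17 ± 0.397 (control), 2.30 ± 0.694 (KO) and 1.67 ± 0.147 (anti-Ly6G), and its log2 difference between KO and control was 0.05 (SE 0.18, adjusted p = 0.922). KO pools 1 to 4 measured 1.63, 1.79, 2.70 and 3.06. In RNA of whole liver these values cannot show whether Mapk12 was lost in the Cre-expressing cells. Mapk13 matched no gene name in the deposited data and was not analysed. The 6 hepatocyte markers summed to between 93369 and 134052 RPM in every pool. Most of this was Alb, with group means of 79178 to 96215 RPM.

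Interferons are secreted proteins that warn cells of infection. Type I interferons bind the IFNAR receptor and activate STAT transcription factors, which join IRF9 and bind the interferon-stimulated response element (ISRE) in promoters. Interferon gamma, made mainly by lymphocytes, acts through paired STAT proteins on the gamma-activated site (GAS) and strongly induces the guanylate-binding GTPases and the genes of antigen presentation. In liver, hepatocytes, Kupffer cells and recruited leukocytes all respond, so the level of such a gene in whole liver sums over many cell types.

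To show what these genes share beyond their names, their promoters were read from RefSeq (GRCm38.p6, windows from 250 bases before to 50 bases after a gene's start). Windows were matched by name and found for 43 of the 65 genes. The ISRE was searched on both strands as GAAA, any 2 bases and again GAAA, and 25 of the 43 genes (58.1%) held it, against 3.99% of 27025 genes with such a window. The GAS was searched as TTCNNNGAA, which reads the same on both strands, and was found in 13 of the 43 genes (30.2%), against 9.55% of all. Stretches of 150 bases before the start are shown for the ubiquitin-like modifier Isg15, a standard marker of interferon signalling, and for 4 genes that were lower in anti-Ly6G livers. Capitals mark ISRE matches, and matches on the opposite strand read TTTC, 2 bases and TTTC. Each is written 5′ to 3′ on the gene's own strand, which is the minus strand in all 5.
Isg15, chr4:156200819-156200968: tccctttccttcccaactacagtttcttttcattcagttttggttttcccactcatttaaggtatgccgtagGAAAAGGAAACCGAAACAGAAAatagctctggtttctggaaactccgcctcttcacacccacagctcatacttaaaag
Rsad2, chr12:26456453-26456602: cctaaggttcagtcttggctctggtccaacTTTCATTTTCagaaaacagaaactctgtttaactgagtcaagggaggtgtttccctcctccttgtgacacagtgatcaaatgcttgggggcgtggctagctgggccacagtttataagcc
Bst2, chr8:71537473-71537622: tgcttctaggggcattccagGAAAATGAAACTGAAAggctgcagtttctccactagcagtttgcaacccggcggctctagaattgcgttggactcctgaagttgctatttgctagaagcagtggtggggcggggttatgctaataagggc
Trim30d, chr7:104507850-104507999: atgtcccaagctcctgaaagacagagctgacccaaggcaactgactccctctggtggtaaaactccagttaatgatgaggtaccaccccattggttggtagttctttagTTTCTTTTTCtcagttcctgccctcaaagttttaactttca
Ifi30, chr8:70766664-70766813: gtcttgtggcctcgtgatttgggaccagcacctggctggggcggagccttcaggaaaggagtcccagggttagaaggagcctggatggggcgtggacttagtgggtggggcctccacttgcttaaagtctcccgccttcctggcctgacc

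Isg15 held 3 overlapping matches, the nearest beginning 66 bases before the start. Bst2 held 2 overlapping matches, Rsad2 1 and Trim30d 1. Ifi30 held none of these letters in the stretch. The motif was in 4 of 8 genes called lower in anti-Ly6G against control, in 1 of 3 called higher and in 20 of 32 not called (62.5%). A match is a description of letters, not of binding.

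Per kilobase of exon (GENCODE vM21), the highest mean signals over the 12 pools were those of Ifitm3 (356), Ifitm2 (175) and Bst2 (108), membrane proteins that block the entry or release of viruses. The lowest were Oas3 (0.319), Ifi205 (0.360) and Gbp4 (0.681). Not corrected for length, Ifitm3, Iigp1 and Trim25 had the highest mean signals (242, 230 and 121 RPM), and Ifi205, Isg20 and Oas1b the lowest (1.50, 2.07 and 2.08 RPM). Some of these genes are close copies of other genes, and how reads shared between them were assigned is not given in the sources used here. Of the 65, 13 had under 80% of their annotated 25-mers unique to them, among them Ifit3 (33.9%), Oas1a (27.5%), Ifitm2 (39.8%), Ifi204 (59.0%) and Ifitm3 (74.6%), and their values are uncertain. The row named Gbp6 carries the ID of Gm43302 in that annotation (0% unique), the row Gbp5 that of Gbp2b and the row Ifi27l1 that of Ifi27. The names are kept here as the table gives them. The same annotation lists Mx2, Oas1b and Gbp11 as polymorphic pseudogenes, which are intact in some strains but not in others.

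**Figure D1:**
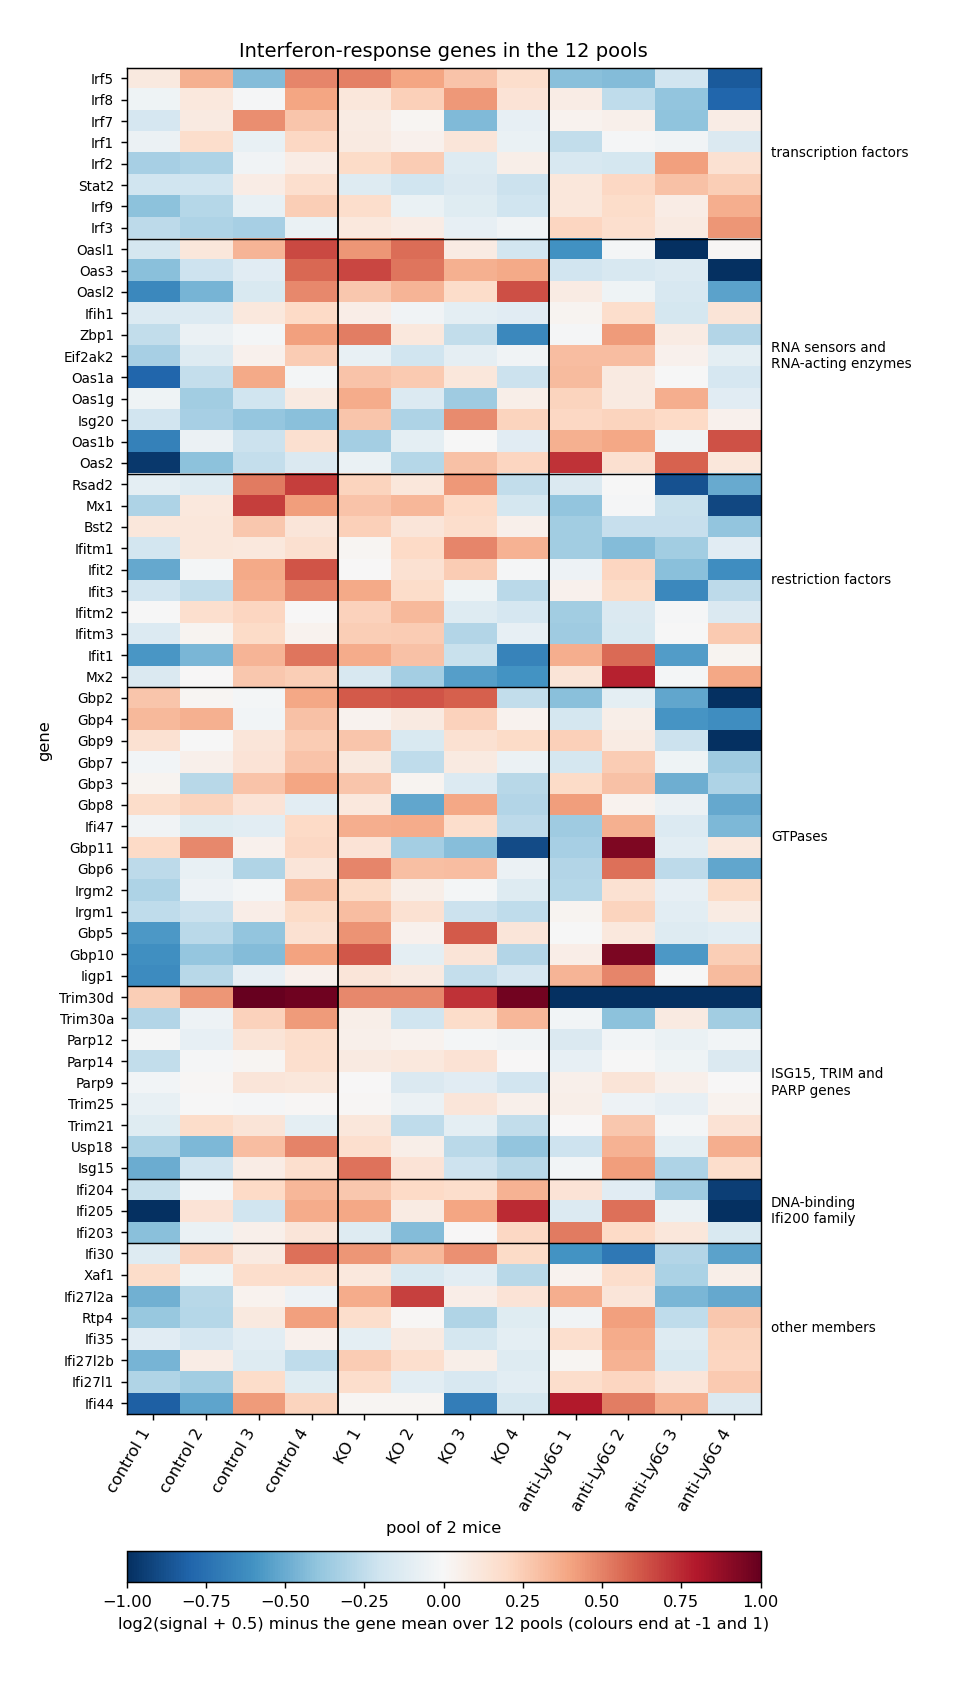
Level of each of 63 interferon-response genes (rows, grouped by role) in each of the 12 pools (columns), as log2(signal + 0.5) minus the gene's mean over the 12 pools, with colours ending at -1 and 1. Trim30d is low in all 4 anti-Ly6G pools, and most rows are blue in control 1.

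In livers of mice given the anti-Ly6G antibody the interferon-response genes did not move as a block. Compared with control, 9 fell and 7 rose at a limma adjusted p under 0.05, so 16 of 65 (24.6%) were called, against a background of 30.4% of all genes tested (15.1% higher and 15.3% lower). The median log2 change of the 65 was 0.00, with 33 above and 32 below 0, and that of all genes was -0.00. The genes that fell were Trim30d, Gbp2, Ifi30, Rsad2, Irf5, Gbp4, Bst2, Irf8 and Ifitm1, and those that rose included Oas2, Iigp1, Isg20, Irf3, Ifi27l1 and Stat2. An unadjusted p under 0.05 was found for 24, against 42.3% of all genes, and on the recovered reads edgeR called 15 (30.2% of all genes) and DESeq2 18 (32.1%). Non-overlapping values between the groups were found for 9 of the 65 genes, against 27.3% of all genes. The share of these genes called was thus not above that of the table. The shares are not matched for spread. The median within-group SD of log2(signal + 0.5) was 0.25 for the 65 genes and 0.164 for all, and a larger SD makes a change harder to call. With the mitochondria label as a covariate, which takes its effect from the KO pools alone, 4 of the 16 calls were kept (Trim30d, Iigp1, Irf3 and Ifitm1), and 973 of all genes were called in place of 3580. The changes of the named genes that lost their call kept their sign. Those of Irf8 (-0.57), Gbp4 (-0.64) and Ifi27l1 (0.52) were larger than without the covariate, those of Ifi30 (-0.66), Bst2 (-0.39), Rsad2 (-0.56) and Stat2 (0.27) of like size, and those of Gbp2 (-0.29), Isg20 (0.13), Oas2 (0.41) and Irf5 (-0.38) smaller. The split by direction moved when 1 library was left out: 8 rose and 4 fell without control 4, 5 rose and 11 fell without control 1, and 4 rose and 9 fell without anti-Ly6G 2. With sample quality weights 9 rose and 7 fell.

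**Figure D2:**
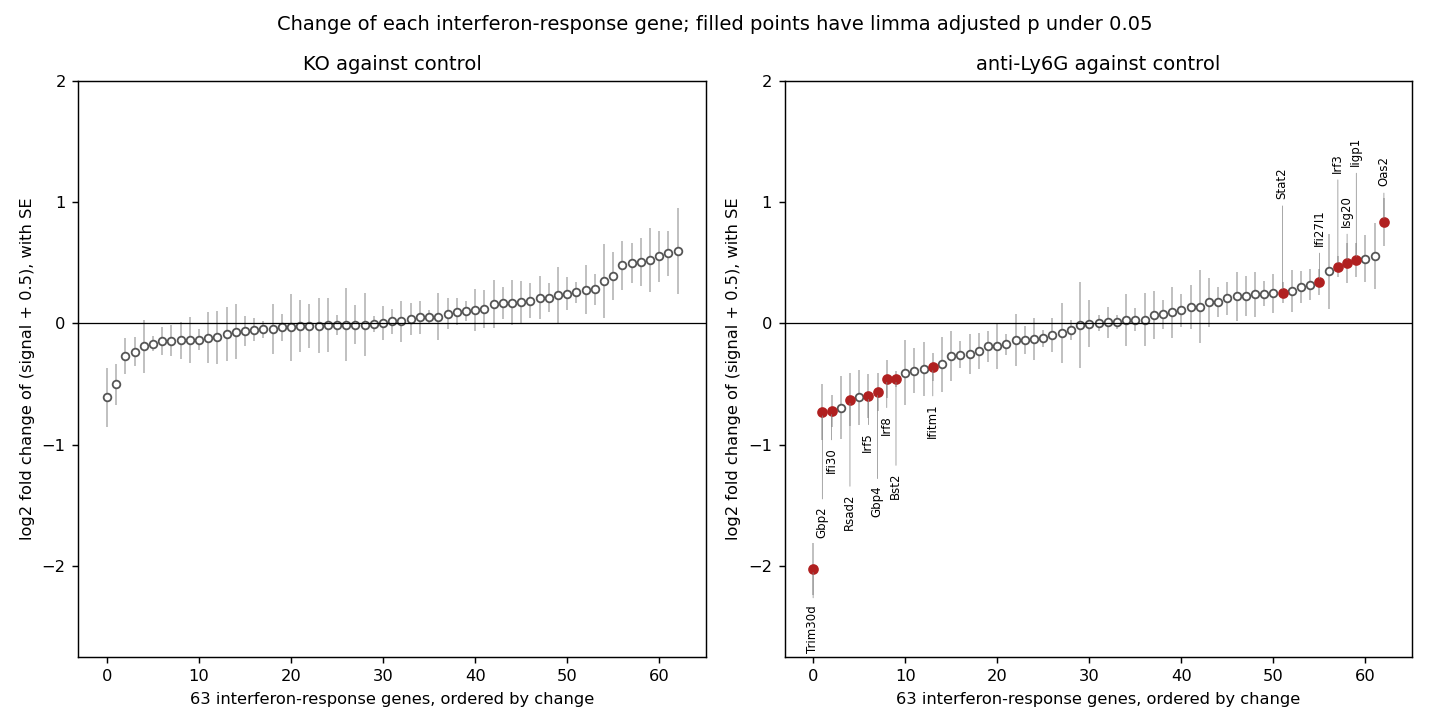
Log2 change of (signal + 0.5) with its SE for each of 63 genes, ordered by change, in KO against control (left) and anti-Ly6G against control (right). Filled points have a limma adjusted p under 0.05: 0 genes on the left, and 9 lower and 6 higher genes on the right, with Trim30d at -2.03 the farthest from 0.

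Among the transcription factors, 3 of 10 rose (Irf3 and Stat2 among them) and 2 fell (Irf5 and Irf8) in anti-Ly6G against control. Of all genes 15.1% rose and 15.3% fell. Irf3, the factor that is activated by nucleic acid sensors and starts interferon transcription, measured 37.8, 36.5, 35.99 and 43.2 RPM in control pools 1 to 4, 48.9, 47.8, 42.7 and 44.3 in the KO pools and 52.6, 51.04, 48.3 and 61.7 in anti-Ly6G. Every anti-Ly6G pool lay above every control pool, and KO 1 reached into the anti-Ly6G range. Its log2 change was 0.47 (SE 0.09, adjusted p = 0.0017). Stat2, which carries type I signals, measured 37.9, 38.1, 46.03 and 49.1 in control, 39.9, 37.98, 39.5 and 37.6 in the KO pools and 47.3, 50.7, 53.7 and 51.9 in anti-Ly6G. Control 4 lay inside the anti-Ly6G range. The change of Stat2 was 0.25 (SE 0.09, adjusted p = 0.0371), and it missed the threshold when the fit left out control 1 (0.20), control 2 (0.20), anti-Ly6G 2 (0.26), anti-Ly6G 3 (0.23) or anti-Ly6G 4 (0.25), or held only the 2 groups (0.25).

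Irf5 and Irf8 are factors of myeloid and B cells: Irf5 drives inflammatory cytokines downstream of Toll-like receptors, and Irf8 is needed for the development of monocytes and dendritic cells. Irf5 measured 16.1, 19.4, 10.99 and 21.3 RPM in control, 21.5, 19.9, 18.4 and 17.03 in the KO pools and 11.1, 10.999, 13.1 and 8.16 in anti-Ly6G. Control pool 3 was as low as the anti-Ly6G pools, and the other control pools were above them. Its change was -0.60 (SE 0.18, adjusted p = 0.0234), and it missed the threshold when the fit left out control 2 (-0.52), control 4 (-0.48) or anti-Ly6G 4 (-0.47). Irf8 measured 12.4, 13.7, 12.7 and 16.8 in control, 13.8, 15.1, 17.4 and 14.1 in the KO pools and 13.4, 10.6, 9.54 and 7.11 in anti-Ly6G. The highest anti-Ly6G pool lay inside the control range. The change of Irf8 was -0.46 (SE 0.16, adjusted p = 0.0421), and it missed the threshold when the fit left out control 2 (-0.46), control 3 (-0.50), control 4 (-0.36), anti-Ly6G 2 (-0.49), anti-Ly6G 3 (-0.44) or anti-Ly6G 4 (-0.30). It also missed it by edgeR (-0.44), with only the 2 groups (-0.46), with sample quality weights (-0.34) and with a replicate block (-0.46).

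Irf9, a DNA-binding partner of STAT2, had a log2 difference of anti-Ly6G against control of 0.32 (SE 0.13, adjusted p = 0.0752), and Irf7, the amplifier of type I interferon production, one of -0.23 (SE 0.15, adjusted p = 0.263). Neither passed, though Irf9 did so without control 4 (0.44). Irf1, an early interferon gamma target, had levels of 29.7 ± 3.15 (control), 29.3 ± 1.70 (KO) and 26.2 ± 1.96 (anti-Ly6G). Its antagonist Irf2 had levels of 29.1 ± 4.13 (control), 34.5 ± 3.96 (KO) and 33.96 ± 6.84 (anti-Ly6G), and neither was called in any comparison.

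Of the 11 RNA sensors and RNA-acting enzymes, 2 rose in anti-Ly6G against control (Oas2 and Isg20) and 0 fell, against 15.1% and 15.3% of all genes. Oas2 makes the oligoadenylates that activate RNase L. It measured 1.95, 3.11, 3.56 and 3.83 RPM in control, 4.09, 3.43, 5.37 and 5.07 in the KO pools and 7.40, 4.87, 6.72 and 4.69 in anti-Ly6G. Control 1 was the lowest of all pools, and all anti-Ly6G pools exceeded all control pools. Its change was 0.84 (SE 0.20, adjusted p = 0.0075), the largest increase among the 65. Isg20, an exonuclease that degrades viral RNA, measured 1.70, 1.50, 1.43 and 1.39 in control, 2.55, 1.53, 3.00 and 2.44 in the KO pools and 2.40, 2.43, 2.38 and 2.10 in anti-Ly6G. The control pools were all below the anti-Ly6G pools. The change of Isg20 was 0.50 (SE 0.17, adjusted p = 0.0366), and it missed the threshold when the fit left out control 2 (0.50), control 3 (0.48), control 4 (0.47), anti-Ly6G 1 (0.49), anti-Ly6G 2 (0.48) or anti-Ly6G 3 (0.49), or had a replicate block (0.50).

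The other enzymes of this role did not pass in that comparison. Oasl1, a relative of the oligoadenylate synthetases that restrains Irf7 translation, had a difference of -0.69 (SE 0.26, adjusted p = 0.0585), and Oas3 one of -0.41 (SE 0.27, adjusted p = 0.264). Oasl1 did pass by DESeq2 (-0.68), with sample quality weights (-0.66) and without control 1 (-0.83), anti-Ly6G 2 (-0.84) or anti-Ly6G 4 (-0.85). Oas1a measured 7.29 ± 2.52 (control), 8.64 ± 1.36 (KO) and 8.29 ± 1.25 (anti-Ly6G), and Oasl2 5.63 ± 2.27 (control), 8.15 ± 1.25 (KO) and 5.54 ± 1.05 (anti-Ly6G). The RNA sensor Ifih1 (MDA5) measured 29.1 ± 3.50 (control), 28.01 ± 1.64 (KO) and 29.8 ± 3.18 (anti-Ly6G). The kinase Eif2ak2 (PKR), which halts translation on viral RNA, measured 18.5 ± 3.29 (control), 17.5 ± 0.847 (KO) and 20.9 ± 2.94 (anti-Ly6G). Zbp1, a nucleic acid sensor that can start necroptosis, measured 13.4 ± 2.81 (control), 12.9 ± 4.53 (KO) and 13.7 ± 2.94 (anti-Ly6G).

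Restriction factors act directly on virus particles or their replication. Here 3 of 10 fell (Bst2, Rsad2 and Ifitm1), 0 rose, and 8 of 10 had a log2 difference below 0, with a median of -0.30 over the 10. Of all 11791 genes 15.3% fell, and 5917 had a difference below 0. Other roles leaned the other way. Of the 11 RNA sensors and RNA-acting enzymes 9 were above 0 (median 0.18), and of the 8 others 6 were (median 0.19). In KO against control 8 of the 10 restriction factors were below 0 as well (median -0.03), with 0 called. Bst2 (tetherin), which holds budding virions at the membrane, measured 104, 104, 116 and 105 RPM in control, 114, 105, 109 and 99.8 in the KO pools and 75.4, 82.01, 81.98 and 73.1 in anti-Ly6G. All 4 anti-Ly6G pools were below all 8 other pools. Its change was -0.46 (SE 0.07, adjusted p = 0.00039). Rsad2 (viperin), an enzyme that makes a chain-terminating nucleotide, measured 18.97, 18.6, 29.5 and 33.2 in control, 23.8, 22.1, 27.7 and 17.1 in the KO pools and 18.3, 20.3, 10.9 and 14.2 in anti-Ly6G. Control pools 1 and 2 overlapped the anti-Ly6G pools. The change of Rsad2 was -0.63 (SE 0.22, adjusted p = 0.0441), and it missed the threshold when the fit left out control 3 (-0.54), control 4 (-0.48), anti-Ly6G 3 (-0.47) or anti-Ly6G 4 (-0.59). It also missed it with only the 2 groups (-0.63), with sample quality weights (-0.47) and with a replicate block (-0.63).

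Ifitm1, which hinders the fusion of viruses with cell membranes, measured 7.69, 9.57, 9.50 and 9.91 RPM in control, 8.94, 10.2, 12.5 and 11.3 in the KO pools and 6.83, 6.39, 6.82 and 8.08 in anti-Ly6G. Only control 1 reached into the anti-Ly6G range. Its change was -0.36 (SE 0.12, adjusted p = 0.0341), and it missed the threshold when the fit left out control 2 (-0.34), control 3 (-0.34), control 4 (-0.32), anti-Ly6G 1 (-0.35), anti-Ly6G 2 (-0.32) or anti-Ly6G 3 (-0.35). Its relatives were not called: Ifitm2 measured 122 ± 9.63 (control), 119.9 ± 20.8 (KO) and 102 ± 9.58 (anti-Ly6G), and Ifitm3 245 ± 22.5 (control), 248 ± 44.5 (KO) and 232 ± 42.1 (anti-Ly6G). The IFIT proteins, which bind foreign RNA ends, were not called either, with differences of 0.14 (SE 0.30, adjusted p = 0.75) for Ifit1 and -0.27 (SE 0.21, adjusted p = 0.34) for Ifit3. Ifit2 measured 6.31 ± 2.21 (control), 5.95 ± 0.573 (KO) and 4.80 ± 1.38 (anti-Ly6G). The sign of the Ifit1 difference turned without control 1 (-0.04) or anti-Ly6G 2 (-0.02). Mx1, of a family of dynamin-like antiviral GTPases, had a difference of -0.61 (SE 0.23, adjusted p = 0.0556), and Mx2 one of 0.23 (SE 0.17, adjusted p = 0.322). Whether these mice make working proteins from them was not tested. Mx1 passed by DESeq2 (-0.69) and without control 1 (-0.79) or anti-Ly6G 2 (-0.73).

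The GTPases destroy the vacuoles of intracellular parasites and bacteria and are mainly targets of interferon gamma. Of 14, 2 fell (Gbp2 and Gbp4) and 1 rose (Iigp1) in anti-Ly6G against control, against 15.3% and 15.1% of all genes. Gbp2 measured 11.98, 9.92, 9.62 and 12.9 RPM in control, 15.2, 15.4, 15.02 and 8.18 in the KO pools and 7.21, 9.07, 6.68 and 3.88 in anti-Ly6G. All anti-Ly6G pools were below all control pools, and KO 4 stood apart from the other KO pools. Its change was -0.73 (SE 0.23, adjusted p = 0.0291), and it missed the threshold when the fit left out control 1 (-0.70), control 4 (-0.66) or anti-Ly6G 4 (-0.51), or used sample quality weights (-0.53). Gbp4 measured 6.37, 6.51, 4.87 and 6.21 in control, 5.11, 5.33, 5.95 and 5.12 in the KO pools and 4.36, 5.22, 3.15 and 3.07 in anti-Ly6G. Control 3 and anti-Ly6G 2 overlapped. The change of Gbp4 was -0.56 (SE 0.15, adjusted p = 0.014).

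Iigp1 (IRGA6), which disrupts the vacuole of Toxoplasma, moved the other way. It measured 145, 185, 212 and 231 RPM in control, 244, 239.5, 191 and 200.2 in the KO pools and 285, 316, 225 and 280.2 in anti-Ly6G. Only control 4 reached above the lowest anti-Ly6G pool. Its change was 0.52 (SE 0.14, adjusted p = 0.0138). The regulatory GTPases that keep Iigp1 inactive on the cell's own membranes were not called: Irgm1 measured 44.02 ± 6.76 (control), 45.8 ± 8.94 (KO) and 47.3 ± 4.58 (anti-Ly6G), and Irgm2 47.5 ± 8.61 (control), 48.4 ± 4.63 (KO) and 47.7 ± 7.25 (anti-Ly6G). The guanylate-binding proteins Gbp3 and Gbp7 were not called, at 12.2 ± 2.52 (control), 11.04 ± 1.96 (KO) and 10.8 ± 2.89 (anti-Ly6G) for Gbp3 and 11.3 ± 1.12 (control), 10.2 ± 1.18 (KO) and 9.91 ± 1.90 (anti-Ly6G) for Gbp7. Ifi47 (IRGD) measured 16.5 ± 1.81 (control), 18.95 ± 3.66 (KO) and 15.4 ± 4.25 (anti-Ly6G) and was not called in any comparison.

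Trim30d had the largest change of all 65 genes. It belongs to a rodent cluster of TRIM proteins, ubiquitin ligases of innate immunity, and lies at chr7:104470014-104507849 on the minus strand (GRCm38). It measured 3.47, 4.06, 6.53 and 6.08 RPM in control, 4.19, 4.17, 5.03 and 6.03 in the KO pools and 1.07, 1.12, 0.715 and 0.485 in anti-Ly6G. Every anti-Ly6G pool was below each of the 8 other pools. Its log2 change in anti-Ly6G against control was -2.03 (SE 0.22, adjusted p = 3.8e-05), and it stayed past the threshold under each alternative that tested it. The filter on a mean signal of at least 5 left it out. No other gene of the ISG15, TRIM and PARP role was called in this comparison. Trim30a, its neighbour, measured 8.70 ± 1.97 (control), 8.73 ± 1.40 (KO) and 7.16 ± 1.29 (anti-Ly6G). Isg15, which is conjugated to proteins much like ubiquitin, measured 7.63, 9.57, 11.6 and 12.4 in control, 16.2, 12.1, 9.45 and 8.99 in the KO pools and 10.7, 14.8, 8.78 and 12.4 in anti-Ly6G. The 3 groups overlapped, and its difference was 0.17 (SE 0.20, adjusted p = 0.537). Usp18, which removes ISG15 and damps the receptor, measured 29.1 ± 9.35 (control), 26.1 ± 4.89 (KO) and 30.3 ± 6.24 (anti-Ly6G).

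**Figure D3:**
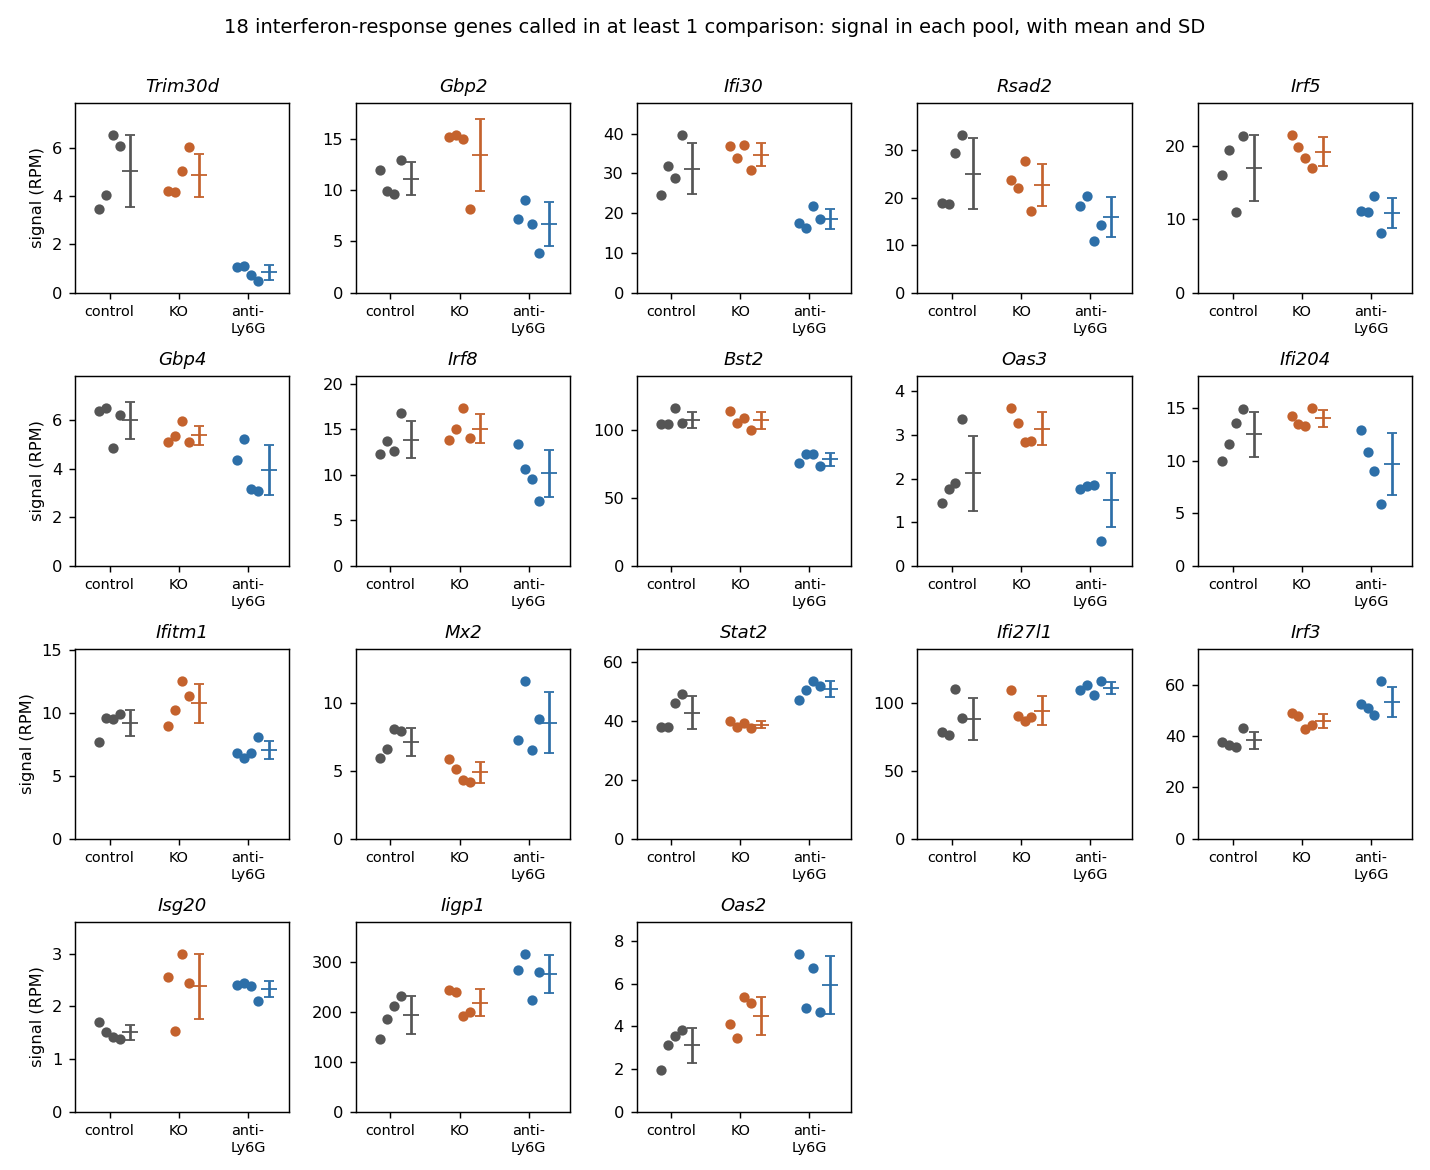
Signal in RPM (linear axes from 0) of 18 genes called in at least 1 comparison, in each pool of the control, KO and anti-Ly6G groups. Points are pools and bars are the mean and SD. The 4 anti-Ly6G points lie below all others for Trim30d, Ifi30 and Bst2, and above all control points for Oas2, Irf3 and Isg20.

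Of the 8 other genes, 1 fell (Ifi30) and 1 rose (Ifi27l1), against 15.3% and 15.1% of all genes. Ifi30 (GILT) is a lysosomal thiol reductase of antigen-presenting cells. It measured 24.6, 31.8, 28.7 and 39.7 RPM in control, 36.8, 33.9, 37.2 and 30.9 in the KO pools and 17.6, 16.2, 21.9 and 18.4 in anti-Ly6G. All anti-Ly6G pools were below all others. Its change was -0.72 (SE 0.13, adjusted p = 0.00149). Ifi27l1, the ID of Ifi27, an interferon-induced protein of inner membranes, measured 78.5, 76.1, 110.0 and 88.9 in control, 109.8, 90.1, 86.5 and 89.8 in the KO pools and 109.6, 113, 106 and 116 in anti-Ly6G. Control 3 lay inside the anti-Ly6G range. The change of Ifi27l1 was 0.34 (SE 0.11, adjusted p = 0.0288), and it missed the threshold when the fit left out control 1 (0.29), control 2 (0.28), anti-Ly6G 1 (0.35), anti-Ly6G 2 (0.33) or anti-Ly6G 4 (0.32). Ifi44 had a difference of 0.56 (SE 0.27, adjusted p = 0.138) and was not called. Xaf1, a promoter of apoptosis, measured 9.54 ± 0.747 (control), 8.07 ± 0.974 (KO) and 8.68 ± 1.28 (anti-Ly6G), and the chaperone Rtp4 11.2 ± 3.02 (control), 10.9 ± 1.59 (KO) and 12.3 ± 2.59 (anti-Ly6G). The 3 Ifi200 genes, of a family that senses cytosolic DNA, were not called, and Ifi204 had a difference of -0.39 (SE 0.19, adjusted p = 0.126), which passed only without anti-Ly6G 1 (-0.54).

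Several markers of immune cells fell in anti-Ly6G against control, a comparison in which 15.3% of all genes were called lower. In it, 5 of 9 measured monocyte and macrophage markers fell and 0 rose. The summed signal of the 9 was 317 to 635 RPM in control, 452 to 757 in KO and 148 to 209 in anti-Ly6G. Among them Ccr2 (0.50), Cd14 (-0.09), Lyz2 (-0.61) and Cx3cr1 (-0.68), given as log2 differences, were not called. Of 9 Kupffer cell markers 4 fell, with sums of 526 to 752 in control, 598 to 754 in KO and 378 to 632 in anti-Ly6G. Not called were Clec4f (0.15), Timd4 (-0.04), Vsig4 (-0.26), Emr1 (-0.09) and C1qa (-0.30), given as log2 differences. Of the 12 neutrophil markers 4 were measured and 3 of these fell, with sums of 12.5 to 21.4, 17.4 to 20.9 and 6.30 to 10.7. Cxcr2 was not called (-0.04). Dendritic cell markers (1 of 5 fell) summed to 21.2 to 36.5, 29.0 to 32.6 and 14.1 to 20.3. Itgax alone fell among these, from 13.2 ± 5.69 to 4.68 ± 1.33, while Clec9a went from 3.59 ± 0.714 to 3.79 ± 0.509 and Siglech from 1.55 ± 0.464 to 2.71 ± 0.896, neither of them called. B cell markers (2 of 4 fell) summed to 14.8 to 24.4, 19.9 to 33.3 and 12.3 to 15.7. The only measured T and NK cell marker, Ccl5, fell from 5.44 ± 1.26 to 2.33 ± 0.902. Endothelial markers (3 of 8 fell) summed to 227 to 258, 150.4 to 253 and 189.7 to 214. Of 6 hepatocyte markers 1 fell, Cps1, from 5557 ± 848 to 3267 ± 828. No measured marker of these lists was at 0. The part of these cell types in the changes of the interferon-response genes was not tested. In RNA of whole liver, fewer cells of a type and less RNA per cell cannot be told apart.

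Between KO and control livers no difference in an interferon-response gene was called. Of the 65 genes, 0 passed the limma test, against 1.12% of all genes tested. By edgeR and DESeq2 on the recovered reads the count was 0 as well (1.3% and 4.9% of all genes). At an unadjusted p under 0.05 there were 10 genes (15.4%), against 18.9% of all genes. The median log2 difference was 0.02, against -0.00 over all genes, and the 65 values ran from -0.61 for Gbp11 to 0.60 for Ifi205. With sample quality weights 3 genes passed (Gbp5, Isg20 and Irf3), when 803 of all genes were called in place of 132. Without control 4, 2 genes passed, Gbp5 (0.72) among them, and 319 of all genes.

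The values of the groups did not overlap for 2 of the 65 genes (3.08%), against 12.4% of all genes. Mx2, a gene related to Mx1 and annotated as a polymorphic pseudogene, measured 5.92, 6.61, 8.08 and 7.93 RPM in control and 5.87, 5.12, 4.37 and 4.21 in KO. All KO pools were below all control pools, the highest KO pool by a small margin. Its difference was -0.50 (SE 0.17, adjusted p = 0.137). Ifi27l2a, a small interferon-induced membrane protein, measured 4.98, 5.81, 7.31 and 6.87 in control and 9.40, 11.8, 7.49 and 7.89 in KO. All KO pools were above all control pools, and the difference was 0.51 (SE 0.20, adjusted p = 0.199). Neither passed the threshold. Gbp5 had a difference of 0.58 (SE 0.18, adjusted p = 0.121), Isg20 one of 0.50 (SE 0.17, adjusted p = 0.141) and Irf3 one of 0.26 (SE 0.09, adjusted p = 0.141). That of Gbp11 was -0.61 (SE 0.25, adjusted p = 0.207). No gene of the cell marker lists was called in KO against control. The median log2 difference was 0.46 over the 9 monocyte and macrophage markers and -0.37 over the 8 endothelial markers. Ccr2 had a difference of 1.00 (SE 0.28, adjusted p = 0.0903) and Cx3cr1 one of 0.90 (SE 0.29, adjusted p = 0.123). Lyz2, whose locus carries the Cre, measured 95.2 ± 49.2 (control), 196 ± 51.2 (KO) and 54.002 ± 14.7 (anti-Ly6G). All its KO pools were above all control pools, with a difference of 1.25 (SE 0.41, adjusted p = 0.135).

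Rows of the same families under older names were not taken by the rule. There were 7, and 1 of them was called in KO against control (1.12% of all genes): the row Gm6907, whose ID is now Phf11c, measured 5.61, 4.76, 7.01 and 4.89 RPM in control, 3.12, 2.48, 2.83 and 2.49 in the KO pools and 4.36, 8.87, 5.82 and 6.55 in anti-Ly6G. All KO pools were below all others. Its change was -0.90 (SE 0.18, adjusted p = 0.0365). In anti-Ly6G against control 1 of the 7 was called, against 30.4% of all genes: Mnda, whose ID is now Ifi211, a gene of the Ifi200 family, fell from 5.69 ± 1.56 to 3.20 ± 1.11, a change of -0.76 (SE 0.20, adjusted p = 0.0122). In KO against anti-Ly6G 3 of the 7 were called, against 26.8% of all genes: Mnda (0.98) and AI607873 (0.66), whose ID is now Ifi207, were higher in KO and Gm6907 (-1.06) lower.

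In KO against anti-Ly6G, 13 of the 65 genes were called, 10 higher and 3 lower in KO, against 26.8% of all genes (13.6% higher and 13.1% lower). With sample quality weights 18 were called, 10 higher and 8 lower, and without anti-Ly6G 3 there were 9 higher and 5 lower. The median log2 difference was 0.04, against -0.01 over all genes. This comparison shares its anti-Ly6G pools with the one against control, and 9 genes were called in both. Over the 3 comparisons 20 of the 65 genes were called at least once and 45 were not. The shares of all genes for these counts were not computed. At an unadjusted p under 0.05 there were 27, against 39.6% of all genes. On the recovered reads edgeR called 13 (26.9% of all genes) and DESeq2 14 (29.1%). The values of the groups did not overlap for 13 of the 65 genes, against 27.3% of all genes. Higher in KO were, among others, Trim30d (2.01), Gbp2 (0.96), Oas3 (0.93), Ifi30 (0.89), Irf5 (0.81), Irf8 (0.58), Ifitm1 (0.57), Ifi204 (0.56) and Bst2 (0.45), given as log2 differences with adjusted p from 4.7e-05 for Trim30d to 0.0387 for Ifi204. Among those lower in KO were Mx2 (-0.73) and Stat2 (-0.39), with adjusted p of 0.00635 and 0.00508.

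Of the genes called here but not against control, Mx2 measured 7.27, 11.7, 6.53 and 8.81 RPM in anti-Ly6G, all above the KO pools, and differed by -0.73 (SE 0.17, adjusted p = 0.00635). Oas3 measured 1.45, 1.75, 1.90 and 3.37 in control, 3.63, 3.27, 2.83 and 2.87 in the KO pools and 1.77, 1.82, 1.86 and 0.566 in anti-Ly6G. The KO pools were all above the anti-Ly6G pools, of which pool 4 was the lowest, and the difference was 0.93 (SE 0.27, adjusted p = 0.0201). Without KO 1 the Oas3 call was lost (0.87). Ifi204 measured 12.5 ± 2.17 (control), 14.05 ± 0.787 (KO) and 9.69 ± 2.99 (anti-Ly6G), and its call (adjusted p = 0.0387) was lost on leaving out any KO pool in turn (0.53 to 0.59) and without anti-Ly6G 3 (0.55) or 4 (0.36), with only the 2 groups (0.56) and with a replicate block (0.56). The call of Irf8 was lost without KO 3 (0.51). Within the NZB label, KO 3 and 4 against the 4 anti-Ly6G pools, 6 of the 13 calls were kept: Trim30d, Ifi30, Bst2, Ifitm1, Mx2 and Stat2. Of the named genes that lost their call there, the differences were 0.63 for Irf8, 0.70 for Irf5, 0.81 for Oas3, 0.74 for Gbp2 and 0.58 for Ifi204.

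The rest of the pathway was read from a list of 106 other genes, of which 87 were measured. The 11 listed interferon ligands matched no gene in the deposited data and were not analysed. In KO against control 1 of the 87 was called, a share near the 1.12% of all genes: Ly6e, a membrane protein induced by interferon, rose from 275 ± 31.2 to 368 ± 12.2 RPM, a log2 change of 0.42 (SE 0.08, adjusted p = 0.0323). In anti-Ly6G against control 7 rose and 25 fell, against 15.1% and 15.3% of all genes, with adjusted p from 6.5e-06 for Trim12a to 0.0483 for Parp10. Changes of single genes are given here as log2 fold changes. The genes of antigen presentation all moved down where they passed: 8 of 14 fell and 0 rose, against 15.3% and 15.1% of all genes, with a median log2 change of -0.34. They were the class I heavy chains H2-K1 (-0.37) and H2-D1 (-0.41), the peptide transporter genes Tap1 (-0.77) and Tap2 (-0.39), the loading factor Tapbp (-0.58), the immunoproteasome subunits Psmb8 (-0.72) and Psmb9 (-0.56) and the proteasome activator Psme1 (-0.31). The rest of this list was not called: B2m (-0.22), Erap1 (-0.21), Psme2 (-0.13), Psmb10 (-0.07), Nlrc5 (-0.04) and Ciita (0.06). Tap1, for example, went from 32.2 ± 4.73 in control to 18.5 ± 1.56 in anti-Ly6G, and was 31.6 ± 4.66 in KO.

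Among 8 receptors and kinases, Ifnar2, a chain of the type I receptor, fell (-0.37), as did Jak1 (-0.28), and Tyk2, the other kinase of that receptor, rose (0.42). Among 14 sensors and adaptors, the kinase Tbk1 (-0.28) and the Toll-like receptor chaperone Unc93b1 (-0.36) fell, and the adaptor Mavs rose (0.37). Among 9 negative regulators, Socs3 (-0.97), Ptpn1 (-0.37) and Pias1 (-0.27) fell. Of 42 other interferon-induced genes 5 rose, Parp11 (0.86), Tgtp2 (0.86), Cxcl11 (0.68), Dtx3l (0.50) and Samd9l (0.46), and 10 fell, from Trim12a (-2.65) and Gvin1 (-2.08) to Parp10 (-0.32). Tgtp1, of the same family as Tgtp2, had a difference of opposite sign (-0.46, SE 0.42, adjusted p = 0.417) and was not called. The part that reads shared between Tgtp1 and Tgtp2 have in these values was not tested. In KO against anti-Ly6G 29 of the 87 were higher in KO and 3 lower, against 13.6% and 13.1% of all genes. These changes ran beside the fall of the immune cell markers given above, and the part of those cell types in them was not tested.

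Pools of one group differed from each other in these genes more than in most genes. The median within-group SD of log2(signal + 0.5) was 0.25 over the 65 genes and 0.164 over all genes, and 54 of the 65 lay above the all-gene median. The most variable were Ifi205 (0.58), Ifit1 (0.51), Gbp10 (0.50), Ifi44 (0.45) and Oasl1 (0.44). Of these, Ifi205 and Gbp10 had low mean signals (1.50 and 2.76 RPM over the 12 pools), where counting error weighs more. The comparison with all genes was not matched for signal level. The genes also moved together from pool to pool. The mean pairwise Pearson r of their deviations from the group means over the 12 pools was 0.297. Over all pairs of genes it was 0.000655, a value that library scaling keeps near 0. Both are given as a description, since all genes share the same libraries. The part that sequence shared among the 65 genes has in this was not tested. In control 1, 57 of the 65 genes were below the group mean (median -0.23), and in control 4, 57 were above it (median 0.22). KO 1 had 51 genes above its group mean (median 0.16) and KO 4 had 48 below (median -0.11). In anti-Ly6G 2, 54 genes were above (median 0.17).

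Single genes show the size of this spread. Ifit1 measured 8.57, 9.42, 16.7 and 19.2 RPM in control pools 1 to 4, 17.1, 16.2, 11.2 and 8.08 in the KO pools and 17.01, 19.6, 8.73 and 13.3 in anti-Ly6G. Each group held pools near the bottom and near the top of this range.

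**Figure D4:**
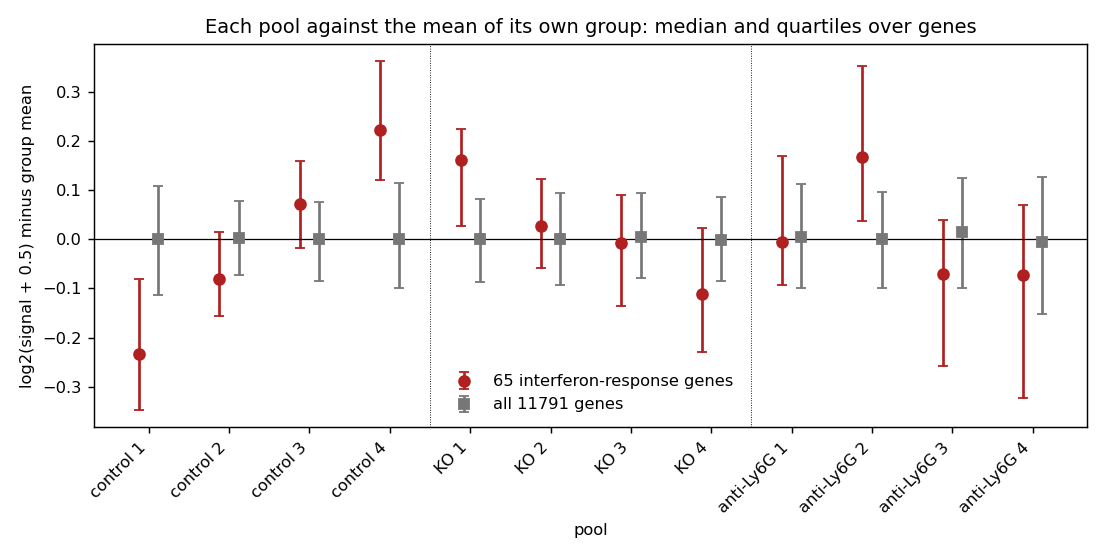
For each pool, the median (point) and quartiles (bars) over genes of log2(signal + 0.5) minus the mean of the pool's own group, for the 65 interferon-response genes (red) and all 11791 genes (grey). The 65 genes are shifted together in control 1 (-0.23) and control 4 (0.22), while the medians of all genes stay near 0, where library scaling keeps them.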

How the data were processed

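Liver RNA of 12 mouse pools was sequenced by Illumina (Genome Analyzer IIx). The authors deposited 1 table with a normalized signal for 11791 genes, of which 143 rows carry no name. Per the submitters' processing notes, the tools were RSEM 1.2.3, edgeR, Bowtie2 2.0.6 and cutadapt 1.2.1, with the build GRCm38. The sources do not say what each did, and annotation and gene filter were not given in the sources used here. Each column summed to between 0.922 and 1.06 M, and 100% of values were whole multiples, within 0.01, of the signal of 1 read. TMM factors recomputed from these reads matched the deposited scaling, at a ratio of 1 for each of the 12 columns.

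Tests were limma-trend fits (limma 3.58.1, R 4.3.3) on log2(signal + 0.5), a scale that understates the change of low genes. Group was the only term, all 12 libraries shared 1 fit, and p-values were adjusted by Benjamini-Hochberg over all 11791 genes at 0.05. A gene is called, or rose or fell, when it passes. Alternatives were pseudocounts of 0.1 and 2, a mean signal of at least 5, edgeR 4.0.16 and DESeq2 1.42.0 on the recovered reads, median-of-ratios scaling, only the 2 groups compared, sample quality weights, a replicate block, the mitochondria label as a covariate or within 1 label, each library left out, and only genes with at least 80% unique 25-mers. The fit was tested on simulated data. Coordinates and unique 25-mers came from GENCODE vM21 (GRCm38), in which 1 of the 65 IDs was not found.

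The 65 genes and all lists were chosen with earlier results of these data known. Named genes are the called members other than 2, a set of standard interferon markers whether called or not, and the members of highest and lowest signal. Single values of those 2 are not reported here, and counts over the 65 include them. Neighbours of Trim30d were looked at after its values were seen.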

Additional observations from a re-analysis of the deposited data

Results flagged for a closer look

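In 8 of the 189 groups of 4 pools examined (63 genes in 3 groups), 1 pool stood apart from the other 3 by Dixon's criterion. Chance flags about 1 in 20 groups. The part of the library in each value was not tested. In control pools, Gbp10 was high in control 4 (3.57 RPM, the others 1.51 to 1.85), Bst2 was high in control 3 (116 RPM, the others 104 to 105), and Xaf1 was low in control 2 (8.42 RPM, the others 9.86 to 9.96). In KO pools, Gbp2 was low in KO 4 (8.18 RPM, the others 15.02 to 15.4) and Ifi27l1 was high in KO 1 (109.8 RPM, the others 86.5 to 90.1). In anti-Ly6G pools, Isg20 (2.10 RPM, the others 2.38 to 2.43) and Oas3 (0.566 RPM, the others 1.77 to 1.86) were low in anti-Ly6G 4, and Irf7 was low in anti-Ly6G 3 (44.7 RPM, the others 60.8 to 62.2).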

How the results depend on the processing

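For the 65 genes, counts called in KO against control (0) stayed at 0 except with sample quality weights (3) and on leaving out 1 library (0 to 2). Counts in anti-Ly6G against control (16) became 4 with the mitochondria label as a covariate and 11 to 16 on leaving out 1 library. Counts in KO against anti-Ly6G (13) became 8 with that covariate, 6 within 1 label and 10 to 16 on leaving out 1 library. Only genes with at least 80% unique 25-mers gave 0, 16 and 11 calls. Over all genes, the 132 calls of KO against control became 577 by DESeq2, 803 with sample quality weights, 79 with the covariate (31.6% higher, against 52.3%), 58 within 1 label (22.4% higher) and 3 (without control 2) to 319 (without control 4) on leaving out 1 library. The 3580 calls of anti-Ly6G against control became 973 with the covariate, and the 3157 of KO against anti-Ly6G became 2041 within 1 label. Among 43 single-gene results, 782 values under alternatives gave 687 on the same side of the threshold, 77 no longer past it, 14 newly past it and 4 of opposite sign: in anti-Ly6G against control, Ifit3 (0.17) and Irf7 (0.083) with the covariate, and Ifit1 on leaving out 1 library (-0.041 to 0.36). The cause was not tested. The anti-Ly6G group has no pool labelled C57, so no value within 1 label could be had for it against control.

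Pools of the same replicate number were not clearly alike: of 12 such pairs 4 had a correlation of deviations over 0.1 (-0.209 to 0.172). Of 12 libraries 4 correlated best with their own number, and no chance level was computed for this count. These values cannot show whether same-numbered pools were handled together. With the number as a replicate block, 0, 14 and 12 of the 65 genes were called in the 3 comparisons, and 20 of all genes in KO against control. Depth limits the lowest genes: 3 reads corresponded to 0.125 to 0.242 RPM.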

Other observations

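The neighbours of Trim30d on chromosome 7 were looked at after its values had been seen. Within 1 Mb, 10 genes including itself were in the table, of which 4 fell and 1 rose in anti-Ly6G against control (15.3% and 15.1% of all genes), and 0 were called in KO against control. Trim12a, of the same cluster, went from 5.79 ± 2.01 RPM in control to 0.486 ± 0.227 in anti-Ly6G and was 5.14 ± 0.99 in KO, a log2 change of -2.65 (SE 0.23, adjusted p = 6.5e-06) against control. Trim34a had a log2 change of -0.79 (SE 0.18, adjusted p = 0.00487). Fam160a2, which lies outside the Trim genes, had a change of -0.36 (SE 0.11, adjusted p = 0.0238). Trim12c, between Trim12a and Trim30a, rose from 11.9 ± 1.68 to 18.8 ± 3.01 RPM, a change of 0.64 (SE 0.14, adjusted p = 0.00445). Trim6 measured 3.56 ± 2.39 in control and 7.03 ± 1.18 in anti-Ly6G and was not called. Trim30a, the nearest gene to Trim30d, was not called either, with 8.70 ± 1.97 in control and 7.16 ± 1.29 in anti-Ly6G. Neighbouring Trim genes thus had changes of opposite sign, and the part that reads shared among these related genes have in them was not tested.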
